A study of Homo sapiens with 6 samples.

Results

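The expression of 9 complement genes was examined in A549, an established human lung adenocarcinoma line, after an siRNA against HNRNPD. The genes are those named C1R, C1S, C3, C5, CFB, SERPING1, CD46, CD55 and CD59 in a table of 56303 genes, and they were taken by name. All 9 were found. RNA sequencing read counts were available for 3 libraries of cells given a negative-control siRNA (control libraries) and 3 of cells given HNRNPD siRNA. HNRNPD encodes AUF1, an RNA-binding protein that recognises AU-rich sequences in mRNAs. Replicates 1 to 3 of a group are numbered in the labels, with no word on separate cultures or on whether 1 or several siRNA sequences were used. The p-values therefore cover only library-to-library spread, possibly technical. No dose or time after transfection is stated. Values given in a row of 3 are in the order of replicates 1, 2 and 3.

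Complement is a cascade of plasma and cell-surface proteins that tags and lyses microbes and damaged cells. The classical pathway starts when C1q binds its target and activates the serine proteases C1r and C1s, which cleave C4 and C2. The alternative pathway amplifies deposition of C3 through factor B, and both lead to cleavage of C3 and then of C5, which begins the assembly of the lytic pore. C1 inhibitor, encoded by SERPING1, blocks C1r and C1s, while CD46, CD55 and CD59 protect the cell's own membrane. The liver makes most plasma complement, but epithelial cells of the lung also make several components, and interferons and other cytokines are known to raise many of them.

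Of the 9 genes, 7 were called higher and 2 lower after HNRNPD siRNA, at an adjusted p under 0.05 (edgeR). Among all 20465 genes tested, 28.4% were called higher and 27.8% lower, or 56.1% together, so a call in itself was common in this comparison. The early and central components C1R, C1S, C3 and CFB, the inhibitor SERPING1 and the membrane regulators CD46 and CD55 rose. The terminal component C5 and the membrane regulator CD59 fell. In all 9 genes the libraries of the groups did not overlap, which was also true of 62.6% of all genes tested. Of the 7 that rose, 5 did so by at least 2-fold, a size that 10.2% of all genes tested reached upward and 6.09% downward. Over the 9 genes the log2 fold change had a median of 1.06, over all genes tested 0.01 and over 22 other complement genes 0. The 9 genes were chosen with earlier results of these data known. Their counts and median are therefore descriptions and not a test of complement genes as a set. The RNA was from whole cultures, in which fewer cells of a type and less RNA per cell cannot be told apart.

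**Figure D1:**
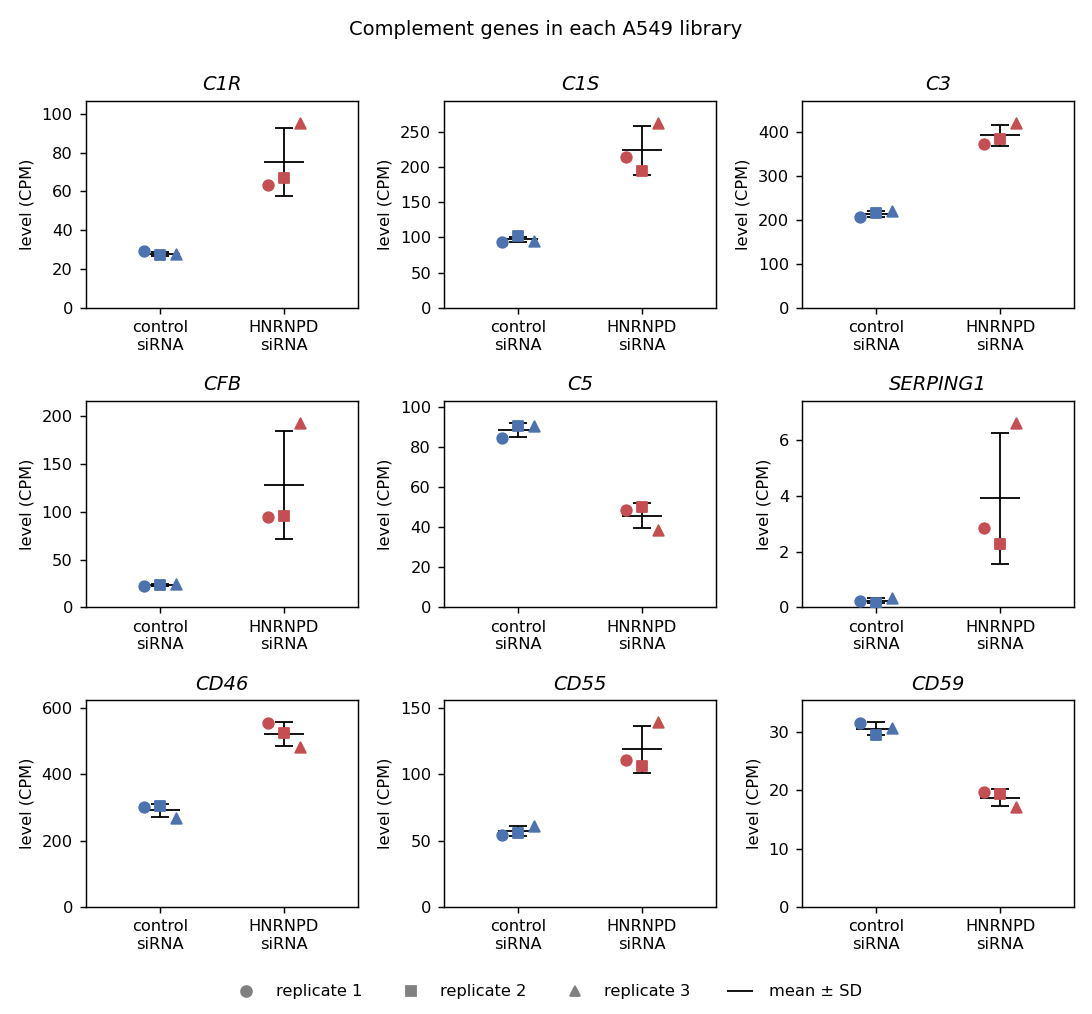
Level of each of the 9 complement genes (CPM, counts per 1000000 library counts) in 3 control and 3 HNRNPD siRNA libraries, with the mean and SD of each group. The groups are separate in every panel, C5 and CD59 are lower after HNRNPD siRNA, and replicate 3 stands above the other HNRNPD siRNA libraries for C1R, C1S, C3, CFB, SERPING1 and CD55.

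HNRNPD itself fell 5.62-fold, from 950.1 ± 13.2 to 169 ± 7.29 CPM (SD, n = 3 per group; log2 fold change -2.49, SE 0.06, edgeR adjusted p = 1.38e-15), which matched the labels in all 6 libraries. Of 6 epithelial markers, 4 keratins were lower and EPCAM higher, and their sum was 5620 to 6000 CPM in the controls and 3590 to 3630 CPM after HNRNPD siRNA. KRT8 was at 3327 and 2055 CPM, KRT18 at 992.9 and 587.6 CPM and KRT7 at 1315 and 852.7 CPM in the control and HNRNPD siRNA groups. KRT19 was at 7.54 and 3.84 CPM, and the epithelial adhesion genes EPCAM and CDH1 were at 16.6 and 20.9 CPM and at 95.8 and 87.4 CPM. CDH1 was not called, except as lower without HNRNPD siRNA replicate 1 (edgeR adjusted p = 0.00858). Of 9 markers of alveolar type II cells, ABCA3 was at 28.3 and 29.3 CPM and LAMP3 at 0.432 and 31 CPM, while SFTPA1 was at 0 in all libraries, SFTPA2 and the lineage factor NKX2-1 had at most 2 counts, SFTPC at most 8 and SFTPB at most 11. NAPSA and SFTPD are named to complete the list. NAPSA went from 0.753 to 1.27 CPM and was called higher. SFTPD, which was not tested, had 12, 9 and 19 counts in the controls and 4, 6 and 6 after HNRNPD siRNA. That list summed to 29 to 31.3 CPM in the controls and to 53.3 to 78.6 CPM after HNRNPD siRNA, with nearly all of the rise from LAMP3. The leukocyte genes PTPRC, CD3E, LYZ and MS4A1 also had at most 2 counts in any library, and CSF1R at most 18. CD14, named here for its direction, fell from 2.07 to 0.514 CPM (3.95-fold, edgeR adjusted p = 1.56e-05). The 7 leukocyte markers summed to between 19.2 and 22.2 CPM in the control libraries and between 73.9 and 153 CPM in the HNRNPD siRNA libraries, nearly all of it from CD68 (18.1 and 101.3 CPM), whose exonic bases lie in other genes too (fraction 0.858). Hepatocyte markers summed to at most 2.14 CPM, fibroblast markers to at most 8.08 CPM, mainly from COL1A1 at 5.14 and 6.67 CPM, and endothelial markers to at most 0.597 CPM. Their part in the complement values was not tested.

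C1R and C1S encode the paired proteases of the first component and lie next to each other on chromosome 12, on opposite strands. C1R (12, 7080209 to 7092607, minus strand, GRCh38) was at 29.06, 27.01 and 27.77 CPM in the controls, and HNRNPD siRNA libraries had 63.08, 66.76 and 95.07 CPM. Every HNRNPD siRNA library was above every control library, and replicate 3 was the highest. The rise was 2.68-fold (log2 fold change 1.42, SE 0.16, edgeR adjusted p = 0.000401). C1S (12, 6988259 to 7071032, plus strand) was at 93.98, 101.9 and 95.65 CPM in the controls and at 214.2, 195.2 and 262.2 CPM after HNRNPD siRNA, again with no overlap and with replicate 3 highest. It rose 2.3-fold (log2 fold change 1.2, SE 0.09, edgeR adjusted p = 2.15e-07). Per kilobase of gene length, C1S stood above C1R in all libraries. The ratio of their levels was 2.84, 3.31 and 3.02 with control siRNA and 2.98, 2.57 and 2.42 with HNRNPD siRNA, and these ranges overlapped. C1R shares 672 of its exonic bases with C1RL, a neighbouring gene for a C1r-like protease that also rose, and reads in those bases may be counted for both genes.

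C3, the component on which all pathways converge, was among the more abundant of the 9 genes. It lies on chromosome 19 (6677704 to 6730562, minus strand). Its level was 205.5, 215.5 and 218.9 CPM in the control libraries and 371.6, 384.1 and 418.6 CPM in the HNRNPD siRNA libraries. The HNRNPD siRNA libraries were close to each other and well apart from the controls. C3 rose 1.84-fold (log2 fold change 0.88, SE 0.06, edgeR adjusted p = 8.71e-10).

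CFB encodes factor B, the protease subunit of the alternative pathway C3 convertase, and lies in the major histocompatibility complex on chromosome 6 (31945650 to 31952084, plus strand). It was at 22.56, 23.43 and 24.03 CPM in the control libraries and at 95.09, 96.09 and 193.1 CPM after HNRNPD siRNA. Control libraries were nearly equal, while replicate 3 of the HNRNPD siRNA group was 2.02 times the mean of replicates 1 and 2. The rise was 5.49-fold (log2 fold change 2.46, SE 0.37, edgeR adjusted p = 0.00496), and 4.07-fold without that library (log2 fold change 2.03, SE 0.06, edgeR adjusted p = 2.65e-25). That library was picked for its distance from the others, so the smaller p is not stronger evidence. Set against C3 per kilobase, CFB was at a ratio of 0.182 ± 0.00098 (SD, n = 3) in the controls and of 0.426, 0.417 and 0.769 after HNRNPD siRNA, so it gained on C3 in all 3 libraries. Other genes overlap a fraction of 0.455 of the exonic bases of CFB, and 2249 of these bases belong to a transcript model, XXbac-BPG116M5.17, whose counts were 93.1% to 95.2% of those of CFB in every library. That gene was named for this overlap after its counts were seen. These rows are not separate measurements.

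Because interferons are known to act on complement promoters, the RefSeq promoter windows of the 9 genes (250 bases before to 50 after a start site, GRCh38.p14) were searched on both strands for GAAA followed after any 2 bases by a second GAAA, the core of the interferon-stimulated response element (ISRE), and for TTC followed after any 3 bases by GAA, the gamma-activated site (GAS). Windows were matched for 6 of the 9 genes (C1R, C5, CFB, CD46, CD55 and CD59), 12 windows in all. Of 35116 windows of all genes, 3.57% held the ISRE core, 7.66% the GAS letters and 0.439% both. The CFB window held both, apart from each other, 140 and 92 bases before the start site. A C1R window and 2 overlapping windows of CD59, a gene that fell, held GAS letters. The windows of C5, CD46 and CD55 held neither. The matches are shown in capitals within 30 bases, 5′ to 3′ along the gene, because CFB rose 5.49-fold and its window held both motifs. The ISRE core of CFB is on the opposite strand and so reads as its reverse complement. They describe letters and not binding.
CFB ISRE core (chr6:31945945-31945974, plus strand): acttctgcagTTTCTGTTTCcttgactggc
CFB GAS (chr6:31945993-31946022, plus strand): cgcttggatgTTCCGGGAAagtgatgtggg
C1R GAS (chr12:7091960-7091989, minus strand): gccagtcctaTTCCTGGAAggggaggggag
CD59 GAS (chr11:33736588-33736617, minus strand): ccacccggccTTCTCAGAAcctgggccagg

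C5 is cleaved to release the anaphylatoxin C5a and to start the membrane attack complex. It lies on chromosome 9 (120952335 to 121050276, minus strand). Its level was 84.19, 90.28 and 90.5 CPM in the controls, and with HNRNPD siRNA it was 48.65, 50.2 and 38.44 CPM. All HNRNPD siRNA libraries were lower than all controls, and replicate 3 was the lowest. C5 fell 1.93-fold (log2 fold change -0.95, SE 0.08, edgeR adjusted p = 1.11e-07). The ratio of C3 to C5, per kilobase, was 1.92, 1.87 and 1.9 in the controls and 5.99, 6 and 8.54 after HNRNPD siRNA.

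SERPING1 encodes C1 inhibitor, the serpin that inactivates C1r and C1s and also proteases of the contact system. It lies on chromosome 11 (57597387 to 57614853, plus strand). SERPING1 had only 10, 6 and 14 counts in the controls (0.235, 0.14 and 0.334 CPM), against 103, 96 and 265 counts after HNRNPD siRNA (2.83, 2.29 and 6.62 CPM). It was low in every library, and the lowest HNRNPD siRNA library was still well above the highest control. The fitted rise was 16.4-fold (log2 fold change 4.04, SE 0.58, edgeR adjusted p = 0.000914), and 10.7-fold without HNRNPD siRNA replicate 3 (log2 fold change 3.41, SE 0.32, edgeR adjusted p = 2.29e-11). Here too the library left out was picked for its distance from the others, so the smaller p is not stronger evidence. This gene passed the filter on low counts only through the HNRNPD siRNA libraries. Per kilobase its level was 0.0033 ± 0.0014 (SD, n = 3) of that of C1R and C1S together in the controls and 0.0216 ± 0.0091 (SD, n = 3) after HNRNPD siRNA.

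The membrane regulators differed in direction. CD46 (membrane cofactor protein) is the cofactor with which factor I cleaves C3b and C4b, CD55 (decay-accelerating factor) dissociates C3 convertases, and CD59 (protectin) blocks the last step of pore formation. CD46 (chromosome 1, 207752057 to 207795513, plus strand) was at 300.8, 304.1 and 268 CPM in the controls and at 554.2, 524.9 and 483.6 CPM after HNRNPD siRNA. All HNRNPD siRNA libraries lay above all controls, and here replicate 3 was the lowest of them. CD46 rose 1.79-fold (log2 fold change 0.84, SE 0.07, edgeR adjusted p = 5.29e-09).

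CD55 lies on the same arm of chromosome 1 (207321508 to 207386804, plus strand), in the cluster of regulators of complement activation. Its level was 54.44, 55.57 and 61.29 CPM in the controls and 110.8, 106.6 and 139.2 CPM after HNRNPD siRNA, with no overlap. It rose 2.08-fold (log2 fold change 1.06, SE 0.09, edgeR adjusted p = 5.8e-07). By contrast, CD59 (chromosome 11, 33698261 to 33736445, minus strand) was at 31.62, 29.53 and 30.66 CPM in the controls and at 19.71, 19.42 and 17.19 CPM after HNRNPD siRNA. Replicates were close within each group. CD59 fell 1.63-fold (log2 fold change -0.71, SE 0.08, edgeR adjusted p = 2.78e-07).

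Per kilobase, the 3 membrane regulators summed to 49.9 ± 1.6 CPM per kb in the controls and to 85 ± 2.2 CPM per kb after HNRNPD siRNA (SD, n = 3 per group). CD59 made up 12.6%, 11.7% and 12.9% of that sum in the controls and 4.56%, 4.71% and 4.14% after HNRNPD siRNA. CD46 held the main share in both groups, at 67 ± 2.5% and 70.4 ± 3.7% (SD, n = 3). The share of CD55 was 20.6 ± 2% and 25.2 ± 4% (SD, n = 3), and its ranges overlapped, since control replicate 3 (22.9%) was above HNRNPD siRNA replicate 1 (22.7%). These shares are descriptions and were not tested.

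**Figure D2:**
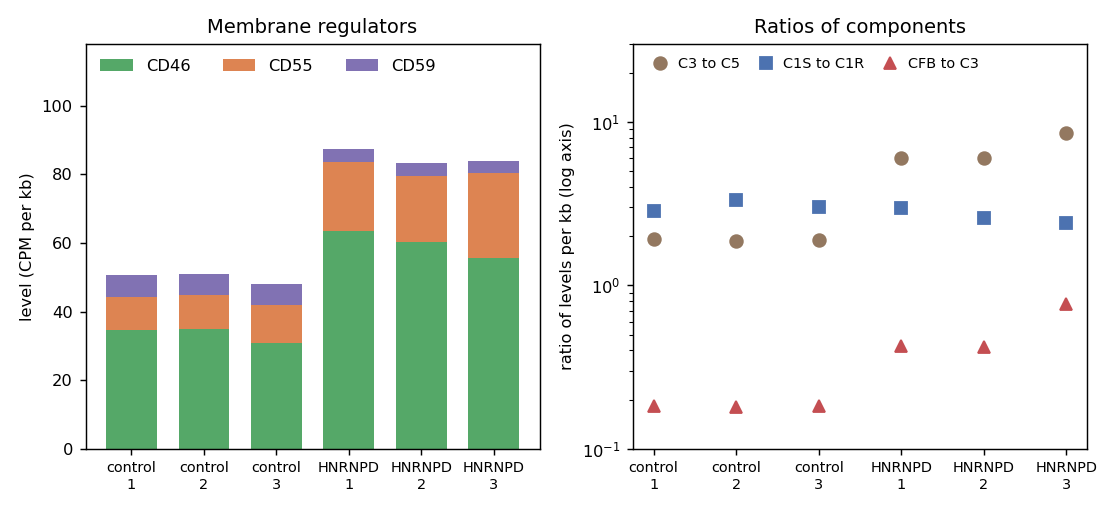
Left, levels of CD46, CD55 and CD59 in each library, stacked (CPM per kb); right, ratios of C3 to C5, C1S to C1R and CFB to C3 in each library, on a log axis. The CD59 segment shrinks to under 5% of the bar after HNRNPD siRNA, and the C3 to C5 ratio goes from about 1.9 to between 5.99 and 8.54.

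CD55 and CD59 are held in the membrane by a glycosylphosphatidylinositol (GPI) anchor, whereas CD46 spans it, so the genes that make and attach the anchor were examined as well. Of 27 such genes, 12 were higher, 3 lower and 12 not called, with a median log2 fold change of 0.23. The shares among all genes tested were 28.4% higher and 27.8% lower. The transamidase subunits GPAA1, PIGT and PIGK, which join the anchor to proteins, rose 1.66-fold, 1.27-fold and 1.17-fold. PIGK lost its call in 4 of the 6 fits that left out a library (control replicates 2 and 3, HNRNPD siRNA replicates 1 and 2), with edgeR adjusted p up to 0.126. PIGL, PIGW, PIGB, PIGO, PIGG, PGAP2 and PGAP6 (listed as TMEM8A) rose by between 1.27-fold and 2.03-fold, and PGAP6 was not called without control replicate 3 (edgeR adjusted p = 0.0516). PIGF and PIGX had log2 fold changes of -0.41 and -0.42, and PIGX was not called without control replicate 1 or 2 or HNRNPD siRNA replicate 2 (edgeR adjusted p of up to 0.0834). The third that fell was PIGH, at 5.42 and 2.5 CPM, named because the count is small. Exons of PIGF, PIGW and PIGH overlap those of opposite-strand genes, at fractions of 0.254, 0.208 and 0.191, and without a known strand setting their reads cannot be told apart there. PIGA, PIGC, PIGM, PIGN, PIGS, PGAP1 and PGAP3 were not called, at log2 fold changes of -0.24 to 0.29. With a library left out or under other settings, PIGC, PIGN and PGAP3 were called higher in some fits and PIGS lower. The smallest edgeR adjusted p of these was 0.00284, for PIGN without HNRNPD siRNA replicate 3.

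Levels of the 9 genes can be ordered per kilobase of gene length. In the controls the order was CD46 (33.4 CPM per kb), C3 (25.6), C1S (15), C5 (13.5), CD55 (10.3), CD59 (6.19), C1R (4.93), CFB (4.67) and SERPING1 (0.0656). Neighbours in this order were apart in every library except C1R and CFB, whose ranges overlapped. After HNRNPD siRNA the order became CD46 (59.8 CPM per kb), C3 (47), C1S (34.6), CFB (25.6), CD55 (21.4), C1R (13.2), C5 (7.01), CD59 (3.8) and SERPING1 (1.09). There the range of CFB overlapped those of both C1S and CD55. CFB and C1R thus passed above C5 and CD59, which they had been below.

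Of the 7 genes that rose, 6 were highest in HNRNPD siRNA replicate 3, the exception being CD46, and both genes that fell were lowest in it. Among all genes called higher, 44.7% were highest in that library, and among all called lower 45.1% were lowest in it. HNRNPD did not set this library apart, at 177, 162.7 and 167.5 CPM in the 3 HNRNPD siRNA libraries. Without replicate 3 all 9 genes kept their calls (edgeR), with log2 fold changes of 1.21 for C1R, 1.07 for C1S, 0.82 for C3, -0.84 for C5, 0.88 for CD46, 0.92 for CD55 and -0.65 for CD59. What differed in that library was not tested.

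The rest of the pathway was examined in 51 further complement genes, of which 22 passed the filter on low counts. Of those, 7 were higher, 6 lower and 9 not called, against 28.4% higher and 27.8% lower among all genes tested. Their median log2 fold change was 0. The other 29 had at most 40 counts in any library, and 7 of them had no count at all, which allows up to 0.0698 to 0.0808 CPM per library at 3 counts.

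In the classical and lectin pathways, C4A and C4B rose with C1R and C1S. C4A went from 1.62 to 4.74 CPM (2.92-fold) and C4B from 1.74 to 6.6 CPM (3.79-fold, edgeR adjusted p = 5.56e-08). Both encode the component cleaved by C1s, and they are near-identical copies between which reads cannot be divided with certainty. C4A shares 303 exonic bases with STK19 on the same strand, a gene named for this overlap. STK19 had 565, 646 and 584 counts in the controls and 1021, 1121 and 1550 after HNRNPD siRNA. Reads in the bases shared with STK19 may be counted for both genes. C4B shares 520 exonic bases with C4B-AS1 on the opposite strand, a gene named for this overlap. C4B-AS1 had 33, 22 and 38 counts in the controls and 109, 105 and 123 after HNRNPD siRNA. Without a known strand setting, reads in those bases cannot be told apart. C1RL rose 1.86-fold. It shares 205 exonic bases with C1RL-AS1 on the opposite strand, a gene named for this overlap, where the same limit holds. C1RL-AS1 had 4971, 5247 and 5243 counts in the controls and 9906, 11105 and 11895 after HNRNPD siRNA. COLEC11, a lectin that starts the lectin pathway, went from 0.832 to 1.86 CPM (2.23-fold). C2, the other C1s substrate, shares exonic bases with CFB and the model above. It was at 0.282 and 0.53 CPM and was not called (edgeR adjusted p = 0.0862), except without HNRNPD siRNA replicate 2 (0.0487). The lectin protease gene MASP2, at 1.13 and 1.11 CPM, was not called. All 3 chains of C1q (C1QA, C1QB and C1QC) had no counts.

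In the alternative pathway CFP, which encodes the stabilising protein properdin, went from 1.13 to 1.94 CPM (edgeR adjusted p = 0.0108), but its libraries overlapped, and it was not called without control replicate 2 (edgeR adjusted p = 0.0533) or HNRNPD siRNA replicate 2 (0.0668). CFD, the protease that cleaves factor B, was at 7.14 and 8.02 CPM and was not called. C9, the pore-forming subunit, was the only other terminal component that passed the filter, and 119 of its exonic bases are shared with DAB2, whose counts were also lower after HNRNPD siRNA (665 to 742 and 231 to 268). It went from 1.51 ± 0.238 to 0.562 ± 0.139 CPM (SD, n = 3), a 2.7-fold fall in the same direction as C5 (edgeR adjusted p = 0.000228).

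Of the soluble regulators, 3 were lower. CFI, the protease for which CD46 serves as a cofactor, went from 8.55 ± 0.542 to 5.05 ± 0.2 CPM (SD, n = 3), a 1.7-fold fall (edgeR adjusted p = 1.39e-05). VTN, whose product vitronectin restrains the terminal pathway, fell 2.88-fold from 4.99 to 1.74 CPM. C4BPA, a chain of the C4b-binding protein, was at 0.488 and 0.111 CPM and was called lower from 2 to 7 counts per HNRNPD siRNA library. Clusterin (CLU), at 762.4 and 724.8 CPM, and CFHR3, at 0.801 and 0.559 CPM, were not called.

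On the cell surface, THBD, whose product thrombomodulin also promotes inactivation of C3b, rose 2.99-fold from 1.11 to 3.34 CPM. Of the receptors, ITGAM and ITGAX, the alpha chains of complement receptors that recognise fragments of C3b, fell from 4.52 to 2.03 CPM (2.24-fold) and from 1.54 to 0.23 CPM (6.48-fold). For ITGAX, which had only 4, 18 and 6 counts in the HNRNPD siRNA libraries, the log2 fold change was -2.7, and -3.53 without replicate 2 of that group. Their shared beta chain ITGB2 was at 0.189 and 0.404 CPM and was not called. The C5a receptor genes C5AR1 and C5AR2 were at 1.23 and 0.741 CPM and at 2.31 and 2.34 CPM, and neither was called (edgeR adjusted p = 0.0563 and 0.929). C5AR1 was called lower without control replicate 2 (edgeR adjusted p = 0.0415) or HNRNPD siRNA replicate 3 (0.0106), with no filter on low counts (0.0312) and with the replicate number as a block (0.03), and ITGB2 higher without HNRNPD siRNA replicate 3 (0.0156). C1QBP, a mitochondrial protein that also binds C1q, was at 134.5 and 127 CPM and was not called.

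**Figure D3:**
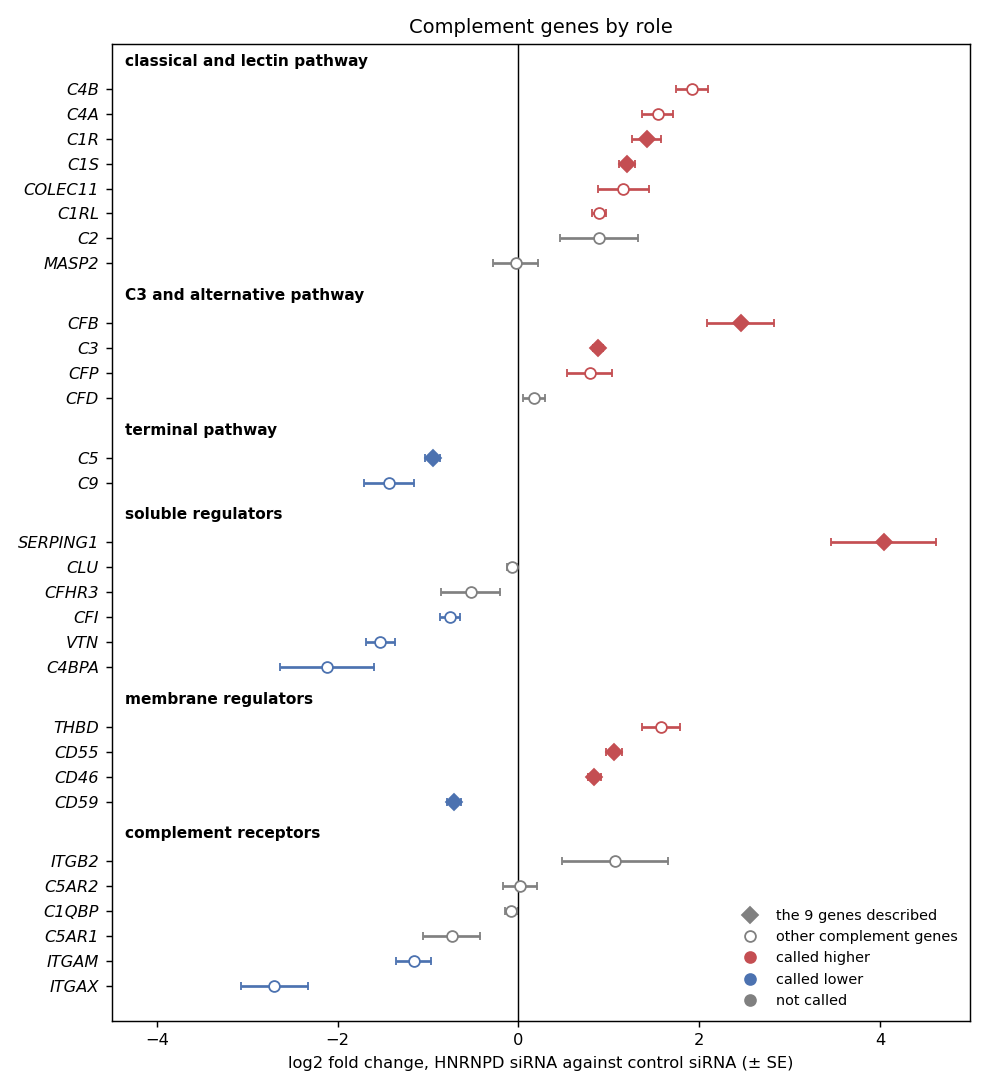
Log2 fold change with SE of the 9 complement genes (filled diamonds) and of other complement genes that passed the filter and are described here (open circles), by role. C5 and C9 are both below 0, early components and C3 are mostly above 0, and regulators lie on both sides.

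Transcription factors known to act on complement genes were also measured. IRF1, a factor induced by interferon, was at 28.01, 32.26 and 29.08 CPM in the controls and rose to 87.67, 78.98 and 120.8 CPM after HNRNPD siRNA (3.22-fold, edgeR adjusted p = 0.000423). CEBPD, an acute-phase factor, rose 1.61-fold. STAT3 and the NF-kB subunit RELA fell by log2 fold changes of -0.29 and -0.38, and CEBPB and NFKB1 were not called, at 29.6 and 30.3 CPM and at 20.2 and 21 CPM. Within its group, HNRNPD siRNA replicate 3 was the highest library for IRF1, and also for CEBPD, STAT3, RELA, CEBPB and NFKB1. Among all genes called higher, 44.7% were highest in it. The part of these factors in the complement values was not tested.

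The nearest tested protein-coding genes on each side of the 9 genes, leaving out the 9 genes themselves and, for each gene, those that share its exons, were examined for a change of the same direction. Of 16 such neighbours, 6 were higher, 3 lower and 7 not called. Among all genes tested, 28.4% were called higher and 27.8% lower, or 56.1% together, so calls near these genes were not unusual. UBE2L6, the conjugating enzyme for the ubiquitin-like protein ISG15, lies 29103 bases from SERPING1 and rose 8.84-fold, and YPEL4 on the other side rose 1.65-fold. TNFSF14, a cytokine gene 7116 bases from C3, rose 5.38-fold from 4.8 to 25.8 CPM, while TRIP10 on the other side, 7363 bases away, was at 189.6 and 206.4 CPM and was not called. Neither neighbour of CFB was called. NELFE (25.7 and 29.8 CPM), which lies 3 bases beyond it on the opposite strand, had a log2 fold change of 0.21, and ZBTB12 (0.754 and 1.17 CPM) one of 0.63 (SE 0.28).

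Next to C5, which fell, TRAF1 rose 2.36-fold and CNTRL was not called. CD46 and CD55 rose between the neighbours C4BPA and PLXNA2, of which PLXNA2, a semaphorin receptor gene, fell 3.51-fold from 10.4 to 2.96 CPM. These nearest tested genes are distant. C4BPA lies 176536 bases from CD55 and 607085 from CD46, and PLXNA2 lies 226729 bases from CD46 and 635438 from CD55. CD59 fell with KIAA1549L (2.44-fold) on one side, and FBXO3 on the other, 4494 bases away, was at 26.6 and 28.4 CPM and was not called. Beside C1R and C1S, RBP5 (a retinol-binding protein gene) rose 2.06-fold and C1RL as given above, and LPCAT3 and EMG1 were not called. LPCAT3, TRIP10, NELFE, ZBTB12 and CNTRL were called higher when 1 of the 6 libraries was left out or under other settings, at log2 fold changes of at most 0.29, or 0.84 for ZBTB12.

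**Figure D4:**
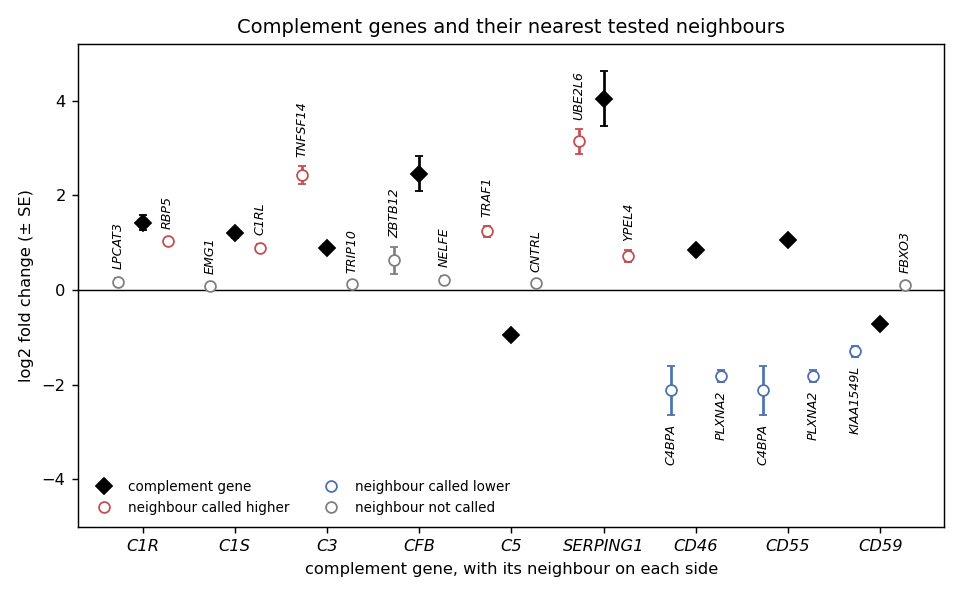
Log2 fold change with SE of each of the 9 complement genes (black diamonds) and of its nearest tested protein-coding neighbour at lower (left) and higher (right) coordinates (open circles). NELFE beside CFB, TRIP10 beside C3 and FBXO3 beside CD59 have values of 0.21, 0.12 and 0.10, while C4BPA and PLXNA2 lie below 0 on either side of CD46 and CD55. C4BPA and PLXNA2 are at least 176536 bases from CD46 and CD55.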

How the data were processed

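Whole-number read counts per gene were deposited by the authors in 1 table for the 6 libraries, 3 per group, with no normalization. Libraries held 37151094 to 43005090 counts. Bowtie 0.12.2 and the builds GRCh38 and mm8 stand in the submitters' processing notes without their roles. No source used here gives the program that counted reads, its annotation or its strand setting. Even numbers made up 66.2% to 69.5% of counts between 1 and 20, against 50.6% to 51.7% of counts over 200, a difference whose cause was not tested.

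The groups were compared with edgeR 4.0.16 (R 4.3.3) by its quasi-likelihood test with robust estimation, TMM scaling, filterByExpr (minimum count 10) and group as the only term, with Benjamini-Hochberg adjustment over 20465 genes and a call at an adjusted p under 0.05. The procedure was run on simulated data in which few genes changed and all genes had the same spread between replicates. In the real data 56.1% of genes were called, so that run does not show how the calls behave here. Standard errors (SE) are the log2 fold change over the root of its F statistic, and CPM values use TMM-scaled totals. Levels were divided by the deposited gene length (in kb) only for comparison between genes. Gene types are from GENCODE 29, which matched 35495 of 56303 rows by name and position. Alternatives were DESeq2 1.42.0, limma-voom (limma 3.58.1), other scalings and filters, counts divided by 2, the table without mitochondrial genes, the replicate number as a block and each library left out in turn.

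The 9 genes and the lists were chosen with earlier results of these data known. Named are the 9 genes, HNRNPD, other complement genes and transcription factors that passed the filter, genes of the other lists with a mean of at least 5 CPM, the nearest tested protein-coding gene on each side of each of the 9, and for each of the 9 the 2 protein-coding genes (mean at least 5 CPM) with the smallest root mean square distance of centred log2(CPM + 1) values over the 6 libraries. Some genes within this rule are not reported here, though counts over lists include them. Genes named outside it are marked. Promoter windows are from RefSeq (GRCh38.p14).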

Additional observations from a re-analysis of the deposited data

How the results depend on the processing

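All 9 complement genes kept their direction and their call under each of the 15 alternatives run (135 of 135 fits). The log2 fold changes ranged from 1.21 to 1.52 for C1R, 1.07 to 1.29 for C1S, 0.82 to 0.9 for C3, 2.03 to 2.63 for CFB, -1.02 to -0.84 for C5, 3.41 to 4.35 for SERPING1, 0.77 to 0.88 for CD46, 0.92 to 1.13 for CD55 and -0.75 to -0.65 for CD59. The largest adjusted p was 0.0281, for CFB without control replicate 1 (edgeR). Levels of these 9 genes from library totals without TMM scaling moved by less than 1 SD. With no filter on low counts, 5 GPI anchor genes were lower in place of 3, and the cause was not tested. Of 72 other named genes, calls were lost in 12 of 1072 fits and gained in 34. Direction turned in 17, all of genes not called. PIGA had -0.01 with no filter, and PIGM 0 with library totals only and 0.01 with at least 1 CPM in 3 libraries. With each library left out in turn, the ranges were -0.16 to 0.09 for MASP2, -0.12 to 0.14 for C5AR2, -0.18 to 0.14 for PIGA, -0.11 to 0.12 for PIGM, 0 to 0.11 for PGAP1, -0.02 to 0.06 for CEBPB, -0.1 to 0.15 for NFKB1 and -0.01 to 0.09 for ABCA3. With the replicate block, all genes called higher were 5792 and all genes called lower 5737, against 5803 and 5687 without it, and the log2 fold changes were 2.38 for CFB and 4 for SERPING1. C5AR1, NELFE and CNTRL were called only with the block or some other alternatives. Deviations of same-numbered libraries correlated at 0.0551, 0.0309 and 0.0225, and not every library correlated best with its own number. Correlations this small, over 3 libraries per group, cannot decide whether the numbers pair the samples. Low counts limit SERPING1 in the controls, ITGAX after HNRNPD siRNA, and C2, C4BPA and ITGB2.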

Other observations

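Besides C1r and C1s, C1 inhibitor blocks proteases of the contact system and of fibrinolysis. Of 6 genes listed for these systems, not all of them proteases, 3 passed the filter. Of these, 2 were lower, as were 27.8% of all genes tested. PLAT, the tissue plasminogen activator gene, went from 3.32 to 1.14 CPM (2.91-fold) and F12, the gene of coagulation factor XII, from 1 to 0.495 CPM (2.03-fold, edgeR adjusted p = 0.0113). F12 shares 399 exonic bases with GRK6 on the opposite strand, whose counts were 1190 to 1274 in the controls and 619 to 817 after HNRNPD siRNA. PLAT and F12 are below the level set for naming genes and were named because the count is small.

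The protein-coding genes with profiles over the 6 libraries nearest to those of the 9 genes were found by root mean square distance of centred log2(CPM + 1) values, over 9642 protein-coding genes at 5 CPM or more on average (9643 for SERPING1, which is itself below that level). For CFB they were CD68, at a distance of 0.055, and TYMP, at 0.097. Those nearest to C1R were ATP10A (0.093) and DENND5A (0.099), and those nearest to C1S were CREBRF (0.054) and ZC3H4 (0.071). C3 was nearest to KDM5A (0.025) and ZNF787 (0.027), CD46 to ZNF675 (0.026) and CHMP3 (0.042), and CD55 to TGM2 (0.047) and FNDC3A (0.048). For the genes that fell, the nearest were NXPE3 (0.036) and CRIP1 (0.045) to C5, and BRI3BP (0.019) and HADHA (0.021) to CD59. SERPING1 was nearest to PLAUR (0.111) and IGF2 (0.113) on this scale, which compresses the changes of so low a gene. With 6 libraries in 2 groups, a small distance says little beyond a change of like size.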
